A study of Mus musculus with 6 samples.

Results

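Leptin, adiponectin and resistin are 3 hormones secreted by white fat, encoded by Lep, Adipoq and Retn. They were read here by gene symbol: each had 1 probe among the 19200 on a 2-colour spotted mouse array, and together they are 3 of the 13409 genes named on it and of the 13200 that could be tested. The tissue was the epididymal fat depot of C57BL/6J males, 12 weeks old, taken 3 hr after injection of either saline or 1 mg per kg of CL-316,243, which activates the main beta receptor of mouse fat cells, beta3. Each treatment was represented by 1 RNA pool from 6 mice, and 6 arrays each carried both pools, with the CL-316,243 pool in channel 1 on arrays 1, 2 and 3 and in channel 2 on arrays 4, 5 and 6. The arrays are technical repeats, so every p-value measures array-to-array spread between 2 pools, and the spread between mice is unknown. In whole tissue, fewer cells of a type and less RNA per cell cannot be told apart.

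Each value is a deposited log ratio of both pools, taken as log2. The sources used here do not say which pool is the numerator, so "higher" below means higher in the numerator pool, and every direction would turn if the numerator were the saline pool. All arrays were read as running the same way. Of the 83 genes with a mean of at least 1 in size in both dye orientations, 82 had the same sign in both. Columns had first been placed on probe numbers in a step that seeks agreement between arrays, so this count is no independent evidence. The p-values below were computed after that step and can therefore be too small. A ratio shows no level, so how abundant each hormone's transcript was is unknown, and levels of different genes were not compared.

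Leptin acts on its receptor in the hypothalamus to report the size of fat stores, and its receptor signals through Jak2 and Stat3. Adiponectin is assembled into large multimers in the endoplasmic reticulum of fat cells and acts through Adipor1 and Adipor2 on liver and muscle, where it raises sensitivity to insulin. Resistin is a cysteine-rich hormone that in mice is made mainly by fat cells and opposes insulin. Beta3-adrenergic agonists raise cyclic AMP in fat cells, which starts lipolysis, and catecholamines are known to lower leptin secretion.

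The proximal promoters of Lep and Adipoq are shown because transcription factors of the C/EBP family, which help to drive both genes, were measured on the same arrays. Both are 300 bases from RefSeq (GRCm38.p6, + strand), with 250 bases before the transcription start and 50 from it onwards: chr6:29059971-29060270 for Lep and chr16:23146286-23146585 for Adipoq. All 3 genes had an entry. Capitals mark matches, on either strand, to 4 motifs that were searched: the TATA box TATAA, the cyclic AMP response element core TGACG, the CCAAT box CCAAT and the C/EBP palindrome TTGCGCAA.
Lep: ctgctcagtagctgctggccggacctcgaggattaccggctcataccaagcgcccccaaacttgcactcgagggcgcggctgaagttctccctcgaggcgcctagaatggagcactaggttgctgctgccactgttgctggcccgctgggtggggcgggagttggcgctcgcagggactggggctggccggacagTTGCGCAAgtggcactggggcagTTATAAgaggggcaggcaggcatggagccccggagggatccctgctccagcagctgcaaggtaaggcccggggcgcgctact
Adipoq: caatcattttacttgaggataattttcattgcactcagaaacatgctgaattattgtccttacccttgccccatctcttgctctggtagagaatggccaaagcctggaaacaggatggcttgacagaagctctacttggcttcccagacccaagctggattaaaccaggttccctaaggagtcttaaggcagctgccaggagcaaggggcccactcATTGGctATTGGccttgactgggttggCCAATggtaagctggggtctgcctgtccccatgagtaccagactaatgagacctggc

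The Lep window held the C/EBP palindrome 55 bases before the start, a sequence found in 60 of 32851 mouse promoter windows of the same length (0.183%). It also held TATAA on the + strand at 31 and on the - strand at 32 bases before the start, overlapping as TTATAA, and 24.9% of the windows held TATAA. The Adipoq window held CCAAT 3 times, on the - strand at 34 and 27 and on the + strand at 7 bases before the start. CCAAT, counted apart from the C/EBP palindrome, was in 37.4% of windows. No C/EBP palindrome was found in the Adipoq window. The Retn window, chr8:3655520-3655819 on the + strand, held none of the 4 motifs, and TGACG, which was in 20.8% of windows, was in none of the 3. A match is a description of the letters, and no binding was measured.

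Some arrays stood apart. The deposited columns had lost between 1 value (array 6) and 724 (array 2), leaving blanks at the end, so each was first placed on probe numbers, which kept between 92.7% and 99.8% of probes on 5 arrays and 66.9% on array 2. Rank correlations between placed arrays ran from 0.08 to 0.42 within an orientation and from -0.0 to 0.17 across orientations. With rows as deposited they ran from -0.0 to 0.03 and from -0.03 to 0.03. The placement seeks such agreement, so the correlations of placed arrays are no independent measure of it. Of 8111 genes with a value on all 6 arrays, 43 exceeded the median of the other arrays by over 2 on array 3, against 2 to 9 on each of the other arrays. On array 2, 84 fell short of it by over 2, against 0 to 3 elsewhere. Ratios of probes of the same gene correlated weakly (r = 0.089 over 969 pairs of probes, against -0.059 to 0.083 at 20 shifted numberings). The identity of a gene is therefore not certain, whether it had 1 probe or several.

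None of the 3 hormone genes passed the test between the pools (0 of 3, limma, adjusted p under 0.05), against 417 of 13200 genes (3.16%), of which 252 were higher and 165 lower. At an unadjusted p under 0.05 the count was 1 of 3, Adipoq, against 2437 of 13200 genes (18.5%), and robust regression in limma passed 0 of 3, against 1223 of 13200 (9.27%). With the columns placed by their signed values, Adipoq had a positive ratio on every array, Lep changed sign with the dye orientation, and Retn rested on 4 arrays of which 1 was far above the rest.

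**Figure D1:**
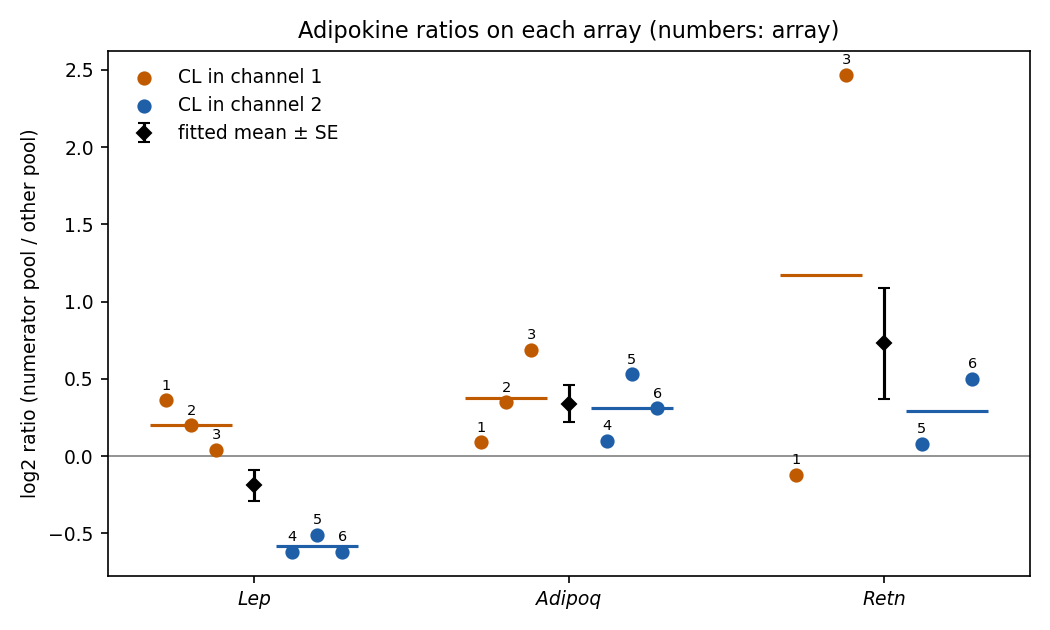
Log2 ratio of numerator over other pool (y axis) of Lep, Adipoq and Retn on each of the 6 arrays (numbered points), coloured by the channel that held the CL-316,243 pool, with the mean of each orientation as a line and the fitted mean ± SE as a black diamond. Lep lies above 0 on arrays 1 to 3 and near -0.6 on arrays 4 to 6, Adipoq lies above 0 throughout, and Retn reaches 2.47 on array 3 and has no value on arrays 2 and 4.

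Lep, the gene of leptin, had log2 ratios of 0.36, 0.20 and 0.04 on arrays 1, 2 and 3 and of -0.62, -0.51 and -0.62 on arrays 4, 5 and 6. The ratio was thus positive on all arrays with the CL-316,243 pool in channel 1 and negative on all with it in channel 2, and the orientations did not overlap. Their means were 0.20 ± 0.16 (SD, n = 3), 1.15-fold, and -0.58 ± 0.06 (SD, n = 3), 1.5-fold in the other direction. The fit over both orientations gave -0.19 ± 0.10 (SE, n = 6 arrays; 95% interval -0.41 to 0.03), a ratio of 1.14-fold, with an adjusted p of 0.349 in limma. An exact two-sided sign-flip permutation test over the 6 arrays gave p = 0.312, where 0.0312 is the smallest p that it can give.

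The difference between the orientations of Lep was larger than its pool difference. It came to -0.78 ± 0.20 (SE, channel 2 minus channel 1; 95% interval -1.23 to -0.34), with an unadjusted p of 0.003 and an adjusted p of 0.387 in limma, rank 99 of the 13200 genes. Over all genes the orientation term passed the test for 1 of 13200 (0.00758%), the testis gene Theg, and 1400 had an unadjusted p under 0.05. Ranges of the orientations did not overlap for 1514 of the 8111 genes on all arrays (18.7%), and 443 (5.46%) were positive throughout one orientation and negative throughout the other, as Lep was. The arrays with CL-316,243 in channel 2 alone gave an adjusted p of 0.0917 for the -0.58, and those with it in channel 1 alone an adjusted p of 0.64 for the 0.20. Placement on absolute values put Lep at -0.72 on array 2 (posterior 0.692, not kept) and left the other 5 arrays as given. The positive value on array 2 thus depended on the placement. On array 2 the placement on absolute values kept 29.6% of all probes, against 66.9% in the main placement, where the 0.20 had a posterior of 1.0. A posterior holds only under its own placement. In the main placement array 2 had the smallest gain in log-likelihood, 327 against 883 to 3227 on the other arrays. The source of the difference between the orientations of Lep was not tested.

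Adipoq, the gene of adiponectin, had ratios of 0.09, 0.35, 0.69, 0.10, 0.53 and 0.31 on arrays 1 to 6. All 6 were positive, as for 450 of the 8111 genes on all arrays (5.55%), and the orientations overlapped, with the lowest values on arrays 1 and 4 and the highest on arrays 3 and 5. The means were 0.38 ± 0.30 (SD, n = 3) with CL-316,243 in channel 1 and 0.31 ± 0.22 (SD, n = 3) with it in channel 2. The fit gave 0.34 ± 0.12 (SE, n = 6; 95% interval 0.08 to 0.61), 1.27-fold higher in the numerator pool, with an unadjusted p of 0.0155 and an adjusted p of 0.155 in limma. The exact sign-flip permutation test gave p = 0.0312, the smallest that 6 arrays allow. The difference between orientations was -0.06 ± 0.23 (SE; 95% interval -0.59 to 0.46; adjusted p = 0.937, limma). Placement on absolute values kept neither array 2 nor array 4 for Adipoq: its most probable value on array 2 was -0.91 (posterior 0.919), and the 0.10 on array 4 had a posterior of 0.498. The fit on the other 4 arrays was 0.40 (adjusted p = 0.275, limma). Among all tested genes the ratio stood at the 92.1 percentile by signed value and at 84.3 by size.

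Retn, the gene of resistin, kept a position with a posterior of at least 0.95 on 4 arrays, with ratios of -0.12 on array 1, 2.47 on array 3, 0.08 on array 5 and 0.50 on array 6. Array 3 was 2.38 above the median of the other arrays with a value, which ran from -0.12 to 0.50. The most probable values on arrays 2 and 4, 1.34 at a posterior of 0.821 and -0.14 at 0.421, were not kept. Placement on absolute values gave other values there, -0.39 on array 2 (posterior 0.498) and 0.84 on array 4 (posterior 1.0), so the sign of Retn on these arrays depended on the placement. The fit gave 0.73 ± 0.36 (SE, n = 4; 95% interval -0.11 to 1.58), 1.66-fold, with an adjusted p of 0.337 in limma, and the median over arrays was 0.29. Without array 3 the fit gave 0.09 (adjusted p = 0.848, limma, with array 1 alone in its orientation), so that array 3 decided the size. Without array 1 it gave 1.38 (adjusted p = 0.029, limma), but array 3 was then the only array with CL-316,243 in channel 1, assumed to vary like arrays 5 and 6, and the value rested on it. The exact sign-flip permutation test gave p = 0.375, and 4 arrays cannot go below 0.125. The means by orientation, 1.17 ± 1.83 (SD, n = 2) and 0.29 ± 0.30 (SD, n = 2), overlapped.

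**Figure D2:**
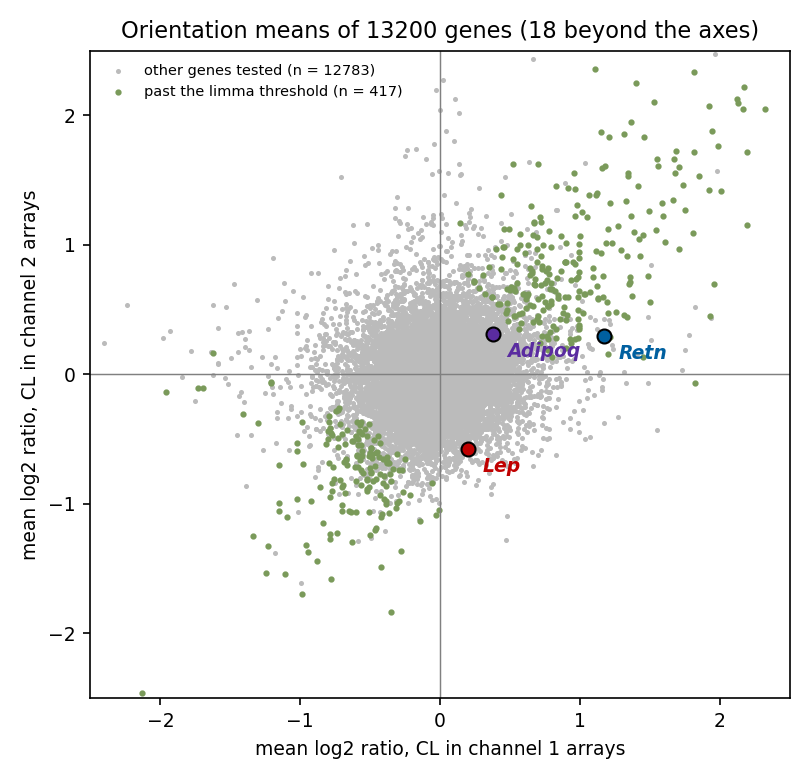
Mean log2 ratio over arrays with the CL-316,243 pool in channel 2 (y axis) against the mean with it in channel 1 (x axis), one point per tested gene, with genes past the threshold and the 3 hormone genes marked; 18 genes lie beyond the axes. Adipoq lies near the diagonal at 0.38 and 0.31, Lep at 0.20 and -0.58 lies where the signs are opposite, and Retn lies to the right at 1.17 and 0.29.

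Ratios on one array share both pools and the hybridisation, so the hormone genes were also compared with each other within arrays, in 3 pairs with p-values adjusted over the pairs. Lep minus Adipoq was -0.53 ± 0.50 (SD, n = 6), negative on 5 of 6 arrays and between -1.04 and 0.28 (exact sign-flip p = 0.0938, adjusted 0.281). The mean of that difference was -0.17 with CL-316,243 in channel 1 and -0.89 with it in channel 2. Lep minus Retn was -0.91 ± 1.21 (SD, n = 4), negative on 3 of 4 arrays (exact sign-flip p = 0.25, adjusted 0.375). Adipoq minus Retn was -0.33 ± 1.0 (SD, n = 4), negative on 2 and positive on 2 arrays (exact sign-flip p = 0.875, adjusted 0.875), and it was 0.15 without array 3. No pair passed the test, and a p that misses the threshold does not show that the genes moved alike. Across the 6 arrays Lep and Adipoq correlated at r = 0.0, given as a description of arrays that share the same RNA.

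Of 96 genes on 7 lists of adipokine biology, 79 could be tested, and 9 passed (11.4%; limma, adjusted p under 0.05), 5 higher and 4 lower, against 3.16% of all genes tested. At an unadjusted p under 0.05, which some lists below are also counted by, the share of all genes was 18.5%, and by robust regression it was 9.27%. Their median was -0.02, beside -0.01 over all genes tested. Lists were described by such counts, which carry no test of their own. The lists were chosen with earlier results of these data known, so a share above that of all genes is no independent evidence.

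**Figure D3:**
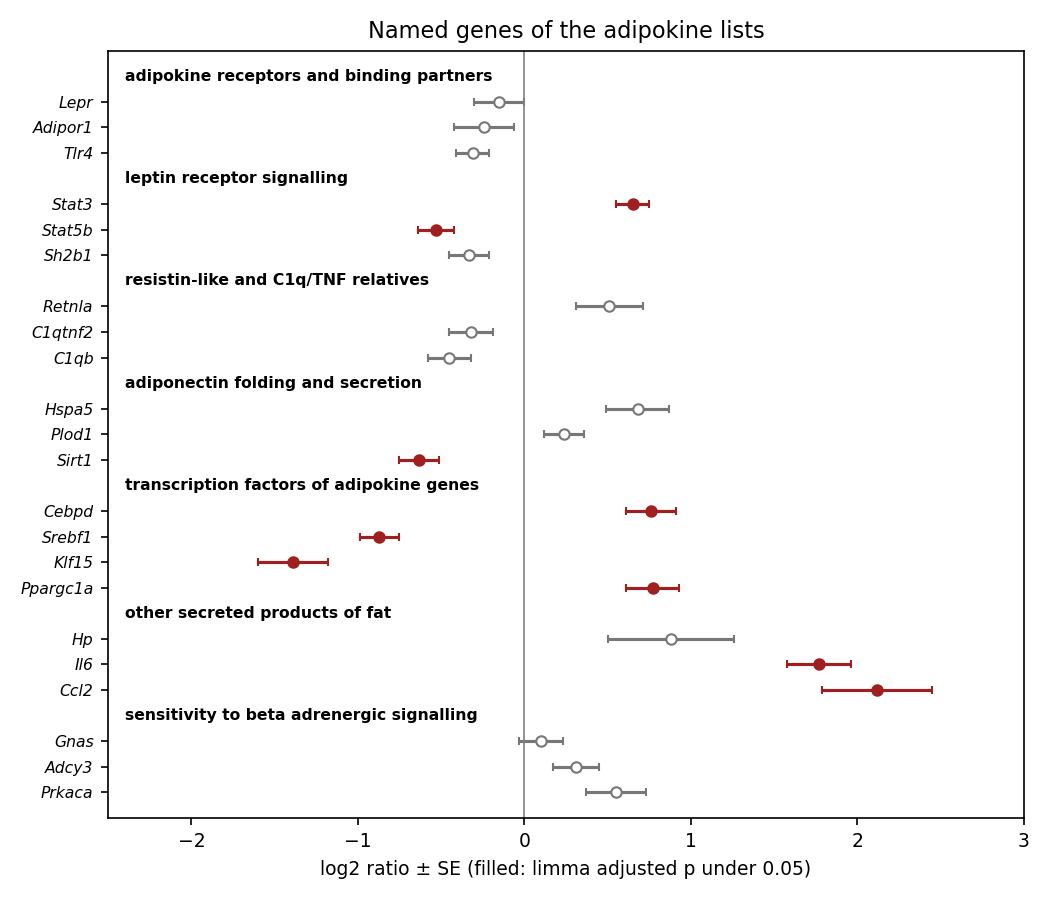
Log2 ratio of numerator over other pool from the fit (x axis) with its SE (bars) for the genes of the 7 lists that passed or had the largest ratios in their list (y axis); filled points passed at an adjusted p under 0.05. Il6 (1.77) and Ccl2 (2.12) lie farthest to the right and Klf15 (-1.39) farthest to the left, and no receptor, resistin-like or beta adrenergic gene is filled.

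None of the 8 tested receptors and binding partners passed (limma; 1 had an unadjusted p under 0.05, and robust regression passed 0), and their median was -0.04. Lepr, the leptin receptor, had ratios of -0.56, -0.17, 0.26 and -0.12 on arrays 1, 3, 5 and 6 and a fit of -0.15 ± 0.15 (SE, n = 4; adjusted p = 0.658, limma). Adipor1, an adiponectin receptor, ranged from -0.95 on array 4 to 0.54 on array 3, with a fit of -0.24 ± 0.18 (SE, n = 6; adjusted p = 0.53, limma). Tlr4, a receptor of bacterial lipopolysaccharide that resistin is also reported to bind, was negative on 6 of 6 arrays, between -0.45 and -0.15, at -0.31 ± 0.10 (SE; adjusted p = 0.142, limma). Adipor2 had no named probe and was not analysed here.

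In leptin receptor signalling 1 of 8 tested genes was higher and 1 lower, with a list median of -0.17. An unadjusted p under 0.05 in limma was reached by 3 of 8. Stat3, the transcription factor that the leptin receptor activates, had 2 probes, which were averaged and are not given singly. It was higher: 0.58, 0.79, 0.93, 0.55, 0.35 and 0.68 on arrays 1 to 6, and 0.65 ± 0.10 in the fit (SE, 1.57-fold; adjusted p = 0.0115, limma). It passed without each array in turn, and its orientations, at 0.77 and 0.53, had the same sign. Stat5b, a relative that serves growth hormone and cytokine receptors, was lower at -0.53 ± 0.11 (SE, 1.44-fold; adjusted p = 0.0321, limma). Its arrays read 0.03, 0.16 and -0.20 with CL-316,243 in channel 1 and -0.94, -0.91 and -1.30 with it in channel 2. The ratio thus rested on channel 2. Its orientations did not overlap, as for 1514 of the 8111 genes on all arrays (18.7%). Leaving out array 1, 3, 4, 5 or 6 ended the call of Stat5b (adjusted p from 0.0722 to 0.109, limma). Sh2b1, an adaptor of Jak2, had -0.33 ± 0.12 (SE, n = 5; adjusted p = 0.18, limma).

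The relatives of resistin and of adiponectin's C1q/TNF domain gave 0 passes among 13 tested genes (limma; 5 had an unadjusted p under 0.05, against 18.5% of all genes, and robust regression passed 1), with a median of -0.06. Retnla, a resistin-like protein of macrophages activated by Il4, read 0.2 on array 1, 1.56 on array 3, 0.42 on array 4, 0.3 on array 5 and -0.28 on array 6. Array 3 was the highest for Retnla as it was for Retn, and the fit was 0.51 ± 0.20 (SE, n = 5; adjusted p = 0.231, limma). C1qb, a chain of complement C1q, had -0.45 ± 0.13 (SE, n = 6; adjusted p = 0.111, limma), and C1qtnf2, an adiponectin paralogue, had -0.32 ± 0.13 (SE, n = 6; adjusted p = 0.22, limma).

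Of 9 genes that fold, modify or release adiponectin, 1 passed (2 had an unadjusted p under 0.05, limma), and the list median was 0.1. Sirt1, a deacetylase reported to act on the release of adiponectin, was lower on 5 of 5 arrays, from -0.87 to -0.39, at -0.63 ± 0.12 (SE, 1.55-fold; adjusted p = 0.0274, limma). Its call ended without array 1, 3, 4 or 5 (adjusted p from 0.0632 to 0.169, limma). Hspa5, the chaperone BiP of the endoplasmic reticulum, ranged from -0.28 on array 4 to 1.12 on array 6, at 0.68 ± 0.19 (SE, n = 5; adjusted p = 0.105, limma). Plod1, a lysyl hydroxylase, had 0.24 ± 0.12 (SE, n = 6; adjusted p = 0.312, limma).

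Among 15 transcription factors and coactivators of adipokine genes 2 were higher and 2 lower, against 3.16% of all genes passing, with a median of -0.06. An unadjusted p under 0.05 in limma was reached by 8 of 15, against 18.5% of all genes. Robust regression passed 4 of 15, against 9.27%. Klf15, a zinc finger factor of fat cells, was lower on 6 of 6 arrays, at -1.6, -1.5, -0.64, -2.01, -2.02 and -0.58 on arrays 1 to 6. Its fit was -1.39 ± 0.21 (SE, 2.62-fold; adjusted p = 0.00773, limma), and arrays 3 and 6 were the least negative. Srebf1, which drives the genes of lipid synthesis, was lower on 5 of 5 arrays at -0.87 ± 0.12 (SE, 1.83-fold; adjusted p = 0.00698, limma). Its mean was -0.5 with CL-316,243 in channel 1 and -1.24 with it in channel 2, so that the orientations shared the sign but did not overlap. The share of all genes without overlap was counted only for genes on all 6 arrays, which leaves out Srebf1. The calls of Klf15 and Srebf1 held without each array in turn. Pparg did not pass, at -0.68 ± 0.17 (SE, n = 6, adjusted p = 0.0634 in limma), but was negative on 6 of 6 arrays, between -1.8 and -0.34.

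Of the C/EBP factors on the list, Cebpd was the one that passed. Cebpa, the main C/EBP factor of mature fat cells, had 0.53 ± 0.20 (SE, n = 6; adjusted p = 0.185, limma), with 1.81 on array 3 and between -0.05 and 0.48 on the others. Cebpb had -0.06 ± 0.13 (SE, n = 5; adjusted p = 0.871, limma). Cebpd, which acts early in fat cell formation, was higher on 5 of 5 arrays, between 0.16 and 1.16, at 0.76 ± 0.15 (SE, 1.69-fold; adjusted p = 0.0301, limma). Ppargc1a, a coactivator of Pparg, was higher on 6 of 6 arrays, between 0.19 and 1.63, at 0.77 ± 0.16 (SE, 1.71-fold; adjusted p = 0.0364, limma). For both genes array 3 gave the lowest ratio, unlike Retn. Their calls were less firm: that of Cebpd ended without array 1, 4, 5 or 6 (adjusted p from 0.0642 to 0.179, limma), and that of Ppargc1a without array 1, 2, 4 or 5 (0.0657 to 0.139).

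Of 23 other secreted products of fat 2 were higher and 0 lower (9 had an unadjusted p under 0.05, against 18.5% of all genes), with a median of 0.04. Il6, the cytokine interleukin 6, read 2.46, 1.82, 1.16, 2.25, 1.89 and 1.02 on arrays 1 to 6 and 1.77 ± 0.19 in the fit (SE, 3.4-fold; adjusted p = 0.00168, limma). Its means by orientation were 1.81 and 1.72, and it passed without each array in turn. Ccl2, a chemokine that attracts monocytes, was higher on 5 of 5 arrays at 2.12 ± 0.33 (SE, 4.36-fold; adjusted p = 0.0134, limma), and its call ended without array 1 or 5 (adjusted p of 0.0676 and 0.067, limma). Hp, the plasma protein haptoglobin, read 3.13 on array 3 and between -0.11 and 0.51 on the others, at 0.88 ± 0.38 (SE, n = 5; adjusted p = 0.257, limma).

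The genes on the way from the beta receptor to cyclic AMP were thinly covered. Adrb3, which encodes the receptor that CL-316,243 binds, had no named probe and was not analysed here, and 3 of the 10 genes on the list were tested. None passed (limma; 1 had an unadjusted p under 0.05, and robust regression passed 0): Gnas, a G protein subunit, had 0.10 ± 0.13 (SE; adjusted p = 0.735, limma). Adcy3, an adenylyl cyclase, had 0.31 ± 0.14 (SE; adjusted p = 0.279, limma). Prkaca, the catalytic subunit of protein kinase A, had 0.55 ± 0.18 (SE, n = 4; adjusted p = 0.166, limma). Its ratios were -0.09 and -0.04 on arrays 1 and 3 and 1.66 and 0.67 on arrays 4 and 5. The orientations thus did not overlap, and the ratio rested on channel 2. With so few arrays such separation is common by order alone, and no share of all genes was counted for it.

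All 3 hormones are products of fat cells, so other fat cell genes were set beside them. Of 12 tested adipocyte markers 1 was higher, the lipid droplet protein Plin4 at 0.89 (adjusted p = 0.0474, limma). Another 1 was lower, the glycerol channel Aqp7 at -0.51 (adjusted p = 0.0317, limma). At an unadjusted p under 0.05 in limma the count was 7 of 12, against 18.5% of all genes, and robust regression passed 2. Ratios were positive for 9 markers and negative for 3. The median of the list was 0.30, against 0.34 for Adipoq. The medians of the list on arrays 1 to 6 were 0.43, 0.34, 0.57, 0.19, 0.06 and -0.10, while Lep was below 0 on arrays 4, 5 and 6. On array 3, where Retn was high, 6 of 11 markers lay above their median on the other arrays, and 4 by more than 1, as did 261 of 12808 tested genes with a value on array 3 (2.04%). These were Cidec (2.66 above, at a ratio of 3.17), Lpl (1.92 above, at 2.29), Car3 (1.46 above, at 1.85) and Fabp4 (1.40 above, at 1.32). The other 7 differed from that median by -0.68 to 0.54. The part of fat cell content or of array 3 in the values of the hormone genes was not tested.

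**Figure D4:**
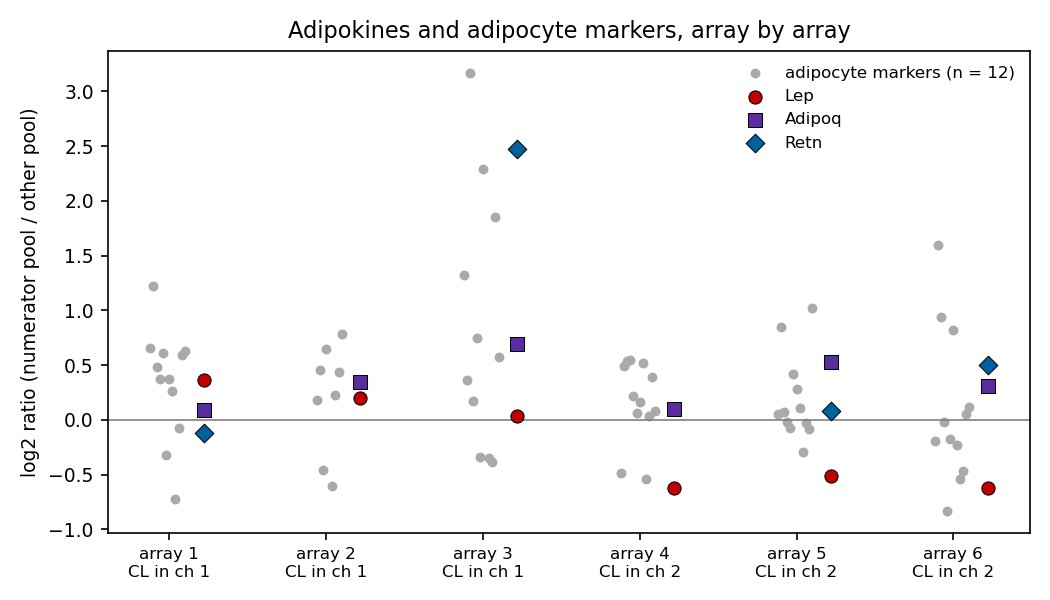
Log2 ratio of numerator over other pool (y axis) on each array (x axis) for the 12 adipocyte markers (grey) and for Lep, Adipoq and Retn (coloured). On array 3 Retn at 2.47 lies among the highest markers, of which Cidec reaches 3.17, and on arrays 4, 5 and 6 Lep lies at or near the low end of the markers.

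Markers of other cells were counted in the same way, against 3.16% of all genes passing. Of smooth muscle and mural markers 3 of 7 were higher (Acta2, Cnn1 and Des, at 0.70, 1.26 and 0.90). Of mesothelial markers 1 of 4 was higher, Krt18 at 0.69. At an unadjusted p under 0.05 in limma these lists gave 5 of 7 and 1 of 4. Of 11 tested genes of seminal vesicle and epididymis, organs next to this depot, 5 were lower, down to -5.47 for Svs5, and 1 was higher, Serpina1f at 4.68. Markers of macrophages (7 tested), endothelium (7), fibroblasts and preadipocytes (9), lymphocytes (7) and blood (2) gave 0 passes in limma; at an unadjusted p under 0.05 they gave 1, 2, 1, 1 and 1, and by robust regression 1, 1, 0, 0 and 0. The medians of these 5 lists were 0.19, -0.13, 0.02, -0.26 and 0.12. Their part in the ratios of Lep, Adipoq and Retn was not tested, and ratios cannot show whether a marker was present at all.

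The genes whose ratios followed a hormone gene most closely over the 6 arrays, among 8111, were named by Pearson's r as a description of arrays that share the same RNA. For Lep these were Pard6a (r = 0.993), Tmpo (0.99) and Ropn1l (0.987). Tmpo, a protein of the nuclear envelope, ran from 0.15 on array 1 to -0.48 on array 6 and differed from Lep by 0.17 (root mean square). Pard6a, a cell polarity protein, kept ratios between 0.05 and 0.30 and so shared the pattern but not the change of sign. For Adipoq they were Chd1l (0.981), Synj2bp (0.975) and 6530415H11Rik (0.972), whose ratios were lower than those of Adipoq by 0.33 to 0.47 (root mean square). Retn was not on all 6 arrays, and no such genes were named for it. With 6 values per gene, the highest r among 8111 genes is high by selection, and no chance level was computed.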

How the data were processed

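RNA pools of 6 mice each were compared on 6 two-colour arrays. Per the labels, cDNA was labelled with fluorescein (Cy3) or biotin (Cy5), signals were amplified with tyramide and quantified with QuantArray 3.0, and a uniform scale factor and LOWESS were applied in the authors' own program. The deposited values are log ratios, taken as log2 (a natural log is possible). Not given in the sources used here are the log base, the numerator, the background correction and the rule for dropped spots. No intensities were used. Column medians lay between -0.015 and 0.006 and SDs between 0.42 and 0.79.

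Rows did not correspond between arrays, so, in a step chosen after seeing the data, a hidden Markov model in which columns can only lose spots placed each column on probe numbers. It was started from 10 positions, and the placement with the highest gain in likelihood was used. Values with a position posterior of at least 0.95 were kept. Because it seeks agreement between arrays, this step increases that agreement. The spread used by the tests was measured after it, so p-values can be too small and counts of passing genes too high. Platform annotation named 14711 of 19200 probes by 1 symbol; 6 with several and 4483 without an entry were not named.

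A gene's probes were averaged, and genes with at least 4 arrays, including both orientations, entered a linear model in limma 3.58.1 under R 4.3.3 (eBayes) with a covariate for dye orientation; p-values were adjusted by Benjamini-Hochberg over all 13200 genes, at a threshold of 0.05. Exact sign-flip tests over arrays were two-sided. Scripts were tested on simulated data. Named genes were the 3 hormones, list genes that passed, the 3 largest ratios per list and the 3 most similar genes. Adipocyte and other markers were named where they passed or, after their values were seen, stood out on array 3. Cebpa and Cebpb were added after their values were seen, beside Cebpd, and so was Pparg, beside Ppargc1a. The hormone genes and lists were chosen with earlier results of these data known. Alternatives covered the placement, signs, scaling, orientation, robust fitting and each array left out. The number of arrays limits the precision.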

Additional observations from a re-analysis of the deposited data

Results flagged for a closer look

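The ratio of Lep differed between the dye orientations. All arrays with CL-316,243 in channel 1 were positive, at 0.36, 0.20 and 0.04, and all with it in channel 2 were negative, at -0.62, -0.51 and -0.62, a difference of -0.78 ± 0.20 (SE, channel 2 minus channel 1). The test of the difference itself gave an adjusted p of 0.387 in limma, and 443 of 8111 genes (5.46%) had opposite signs throughout in the same way. Without each array in turn the difference lay between -0.86 and -0.70, with adjusted p from 0.318 to 0.683 in limma.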

How the results depend on the processing

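Lep kept its direction and stayed above the threshold under 18 of 20 alternatives, Adipoq under 17 of 20 and Retn under 16 of 19, with adjusted p from 0.0725 to 0.947, 0.123 to 0.972 and 0.029 to 0.983. With rows as deposited, without placement, Lep was 0.19, Adipoq -0.05 and Retn -0.03, and 0 of 13409 genes and 0 of 79 list genes passed in limma (489 and 6 at an unadjusted p under 0.05). With the signs of the channel 1 arrays turned after the same placement, Lep was -0.39, Adipoq -0.03 and Retn -0.44. In limma 1 gene and 0 list genes then passed (1400 and 13 at an unadjusted p under 0.05). With the channel 1 arrays alone, Lep was 0.20, and 69 genes and 1 list gene passed; with the channel 2 arrays alone 211 genes passed. Placement on absolute values passed 166 genes and robust regression 1223. The exact sign-flip test put Adipoq (0.34) at p = 0.0312, unadjusted over genes. Leaving out each array gave Lep -0.23 to -0.15, Adipoq 0.26 to 0.42, Retn 0.09 (without array 3) to 1.38 (without array 1, adjusted p = 0.029 in limma, with array 3 alone in its orientation), 135 to 401 genes and 4 to 8 list genes. The fewest genes came without array 5 (135 and 4), array 1 (143 and 5) and array 4 (222 and 6). The orientation difference of Adipoq ranged from -0.21 to 0.09 and was positive without array 3 (0.09) or array 4 (0.04); that of Retn ranged from -2.17 to 0.41, positive without array 3, as was Adipoq minus Retn (-0.59 to 0.15). Lep minus Adipoq stayed between -0.70 and -0.43, and Lep minus Retn between -1.38 and -0.41. Apart from fewer arrays entering a fit, the cause of these changes was not tested. Placement without the hormone probes left their ratios as reported. Retn has no value where all 6 arrays are required. Array numbers are not shared between orientations, and each array holds both pools, so no block was fitted. Without intensities, signal over background is unknown.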
